A study of Mus musculus with 9 samples.

Results

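Collagen genes are reported here across 9 bulk RNA-seq libraries of mouse 4T1 mammary tumors. Every gene whose symbol has the form Col, a number, a and a number was taken, which gave 43 of the 22609 genes listed. The 43 genes were divided by protein class into 11 fibrillar, 6 basement membrane, 9 FACIT (fibril-associated collagens with interrupted triple helices), 6 beaded filament, 4 transmembrane, 3 short-chain, 2 multiplexin, 1 anchoring fibril and 1 unclassified gene. The rule used no measured level. The tumors grew from 500000 4T1 cells, a BALB/c mammary carcinoma line, placed in a mammary fat pad, in BALB/c mice kept on their diet beforehand for 6 weeks. The LFD group (n = 3) ate a diet with 10% of its energy from fat and the HFD group (n = 3) one with 60%, and both received the vehicle, 0.3% hydroxy propyl cellulose. The HFD+EC359 group (n = 3) ate the 60% diet and received EC359, an inhibitor of the leukemia inhibitory factor receptor, at 5 mg/kg by intraperitoneal injection on 5 days per week. No LFD group with EC359 was included, so the treatment was compared on the HFD only. The host and the 4T1 cells are of the same strain, so reads of host fibroblasts and of carcinoma cells cannot be told apart, and in bulk tumors fewer cells of a type and less RNA per cell cannot be told apart either.

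Collagens are the main structural proteins of the extracellular matrix. Their chains wind into a helix built on a repeat of glycine and a pair of other residues, usually rich in proline and hydroxyproline. Fibrillar collagens are made mostly by fibroblasts and pack into the banded fibers of the tumor stroma, type IV collagens form the sheet under epithelium and endothelium, FACIT collagens sit on the fiber surface, and type VI collagens form beaded filaments around cells. Collagen VII anchors epithelium to the stroma beneath it, and the transmembrane collagens are held in the cell membrane.

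The repeat can be read in the exons. Of 2014 merged exons of the 43 genes, 468 (23.2%) were exactly 54 bases long, against 703 of 207873 (0.338%) in all other genes with coordinates. The share was 47.1% (305 of 647) in the fibrillar class, 24.7% (108 of 437) in the FACIT class, 4.05% in the basement membrane class and 0 in the short-chain class. In 451 of the 468 exons a glycine codon (GGN) opened each of 6 successive steps of 3 codons. The 54-base exons shown belong to members that the results turn on, and the capitals mark the glycine codons. They are given 5′ to 3′ on the coding strand in build mm9, at chr11:94805669-94805722 (plus strand, exon 26 of 51) for Col1a1, chr6:4474117-4474170 (plus, exon 27 of 52) for Col1a2, chr1:45391606-45391659 (plus, exon 26 of 51) for Col3a1, chr1:45459961-45460014 (minus, exon 29 of 54) for Col5a2, chr15:55304835-55304888 (plus, exon 40 of 48) for Col14a1 and chr9:108882252-108882305 (plus, exon 106 of 118) for Col7a1.
Col1a1: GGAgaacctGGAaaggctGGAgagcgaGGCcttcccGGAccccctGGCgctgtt
Col1a2: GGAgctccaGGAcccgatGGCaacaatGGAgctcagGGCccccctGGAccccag
Col3a1: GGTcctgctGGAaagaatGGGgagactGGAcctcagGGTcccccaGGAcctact
Col5a2: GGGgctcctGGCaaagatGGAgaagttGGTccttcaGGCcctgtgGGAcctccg
Col14a1: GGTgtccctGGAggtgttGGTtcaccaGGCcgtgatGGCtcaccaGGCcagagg
Col7a1: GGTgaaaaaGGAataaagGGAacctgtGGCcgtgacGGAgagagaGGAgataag
Col17a1 had 3 exons of 54 bases, and 0 of them carried the glycine codon at all 6 steps, read from the first base of the exon.

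Total counts ran from 5085357 to 6509130 in the LFD libraries, from 7314704 to 7922852 in HFD and from 8043649 to 9751201 in HFD+EC359. Levels are given as CPM (counts per 1000000 of the scaled library total), and 3 counts in a library equal 0.308 to 0.59 CPM before scaling. LFD replicate 1 was the smallest library and stood farthest from its group. The log2 level of genes of at most 45.8% GC relative to genes of at least 55.4% GC was −0.536 to −0.317 in LFD, 0.104 to 0.156 in HFD and 0.254 to 0.302 in HFD+EC359. Collagen transcripts had a median GC of 55.6%, against 50.8% over all genes tested, so for collagen and pathway genes, values with the GC and length trend removed are given where that ended a call or moved a printed difference by over 1.5 times. That step moved the log2 difference by over 1.5 times, or turned its sign, in 14 of 34 collagen genes for the diet, 7 on EC359 and 17 between HFD+EC359 and LFD. The 34 collagen genes with enough counts were tested together with all 13366 such genes, with the quasi-likelihood test of edgeR, and p-values were adjusted by the Benjamini-Hochberg method. A gene was called where it changed more than 2-fold at an adjusted p under 0.01. The words rose and fell are kept for such genes, and higher and lower for an adjusted p under 0.05 or for levels. The labels call the replicates tumors, 3 per group, but do not tie them to separate mice. If libraries shared a tumor or tumors shared a mouse, the p-values would be too small. Libraries of a group differed pairwise by a mean chi-square per gene of 1.37 to 1.58, apart from pairs with LFD replicate 1 (2.59 and 3.18). Counting noise alone gives about 1. Whether libraries of a group shared material was not tested.

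The other 9 genes were at or near 0 throughout. Col9a1 and Col9a2, chains of the cartilage collagen IX, had 0 counts in all 9 libraries, which allows up to 3 counts in each, and Col19a1, Col4a3 and Col10a1 had at most 3 counts in any library. The remaining untested genes (Col2a1, Col4a4, Col22a1 and Col25a1) reached at most 12 counts in a library. Of 8 cartilage and bone markers, 6 (Acan, Matn1, Chad, Bglap, Ibsp and Sp7) also had at most 3 counts in every library.

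Collagens took 2.08%, 1.83% and 1.89% of all counts in the 3 LFD libraries, 2.46%, 2.43% and 2.35% in HFD, and 1.2%, 1.19% and 1.17% in HFD+EC359. The groups did not overlap, and every HFD+EC359 library was below every library of the other groups. Fibrillar genes carried most of that movement, at 0.957% ± 0.089 (SD, n = 3) of all counts in LFD, 1.54% ± 0.0448 in HFD and 0.456% ± 0.00893 in HFD+EC359. The classes differed in this. Beaded filament genes took 0.245%, 0.217% and 0.203% of counts in the same order, and basement membrane genes 0.317%, 0.323% and 0.251%. The type I and type III collagen genes Col1a1, Col1a2 and Col3a1 together made up 38.4% ± 1.16 of collagen counts in LFD, 54.5% ± 0.357 in HFD and 27.2% ± 0.189 in HFD+EC359. Without these 3 genes the collagen share was 1.19%, 1.1% and 0.864%, with no rise from LFD to HFD. A share of counts also moves with the other genes of a library.

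**Figure D1:**
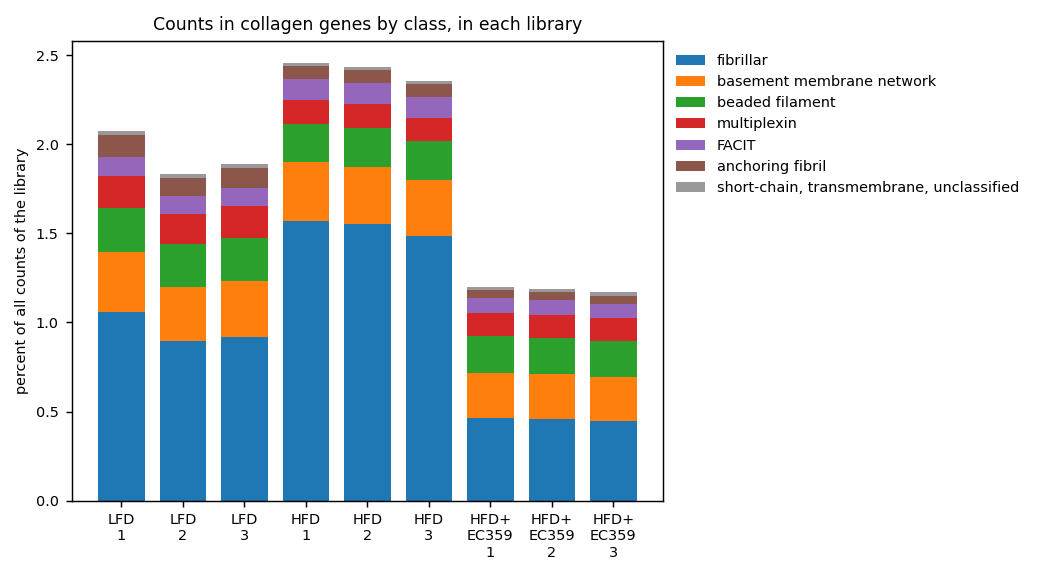
Percent of all counts of a library that fell in collagen genes (y axis), stacked by class, for each of the 9 libraries (x axis). The HFD bars reach 2.35% to 2.46%, the LFD bars 1.83% to 2.08% and the HFD+EC359 bars 1.17% to 1.2%, with the fibrillar part changing most.

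The diet comparison asked which collagen genes differed between HFD and LFD tumors that both received vehicle. Of the 34 collagen genes tested, 5 were called (14.7%), where 5.71% of all tested genes were called, 3.03% upward and 2.68% downward. Col14a1 and Col28a1 rose, and Col13a1, Col17a1 and Col23a1 fell. At an adjusted p under 0.05 with any size of change, 15 were higher and 10 lower in HFD (25 of 34, 73.5%), against 51.8% of all genes. The median log2 difference was 0.07 over the 34 genes and 0.01 over all genes. With the GC and length trend removed, these medians were 0.16 and −0.01. In 24 of the 34 genes the HFD and LFD libraries did not overlap (57.1% of all genes, 28.6% in each direction). The transmembrane class was the only one with more than 1 tested gene in which every tested gene was called, and all 3 fell.

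The treatment comparison asked how HFD tumors differed with EC359. Of the 34 tested genes, 10 were called (29.4%), against 3.43% of all genes tested. The 9 that fell were Col1a1, Col1a2, Col3a1, Col5a2, Col5a3, Col11a1, Col27a1, Col14a1 and Col28a1, where 1.38% of all genes fell. Col17a1 rose, where 2.06% of all genes rose. At an adjusted p under 0.05, 21 were lower and 3 higher (24 of 34), against 26.6% of all genes. The libraries of both groups did not overlap in 25 of 34 (41.3% of all genes). The median log2 difference was −0.50 over collagen genes and 0.01 over all genes. The classes were unequal, with a median of −1.28 over the 10 fibrillar genes, −0.29 over 5 FACIT, −0.14 over 4 basement membrane and −0.13 over 6 beaded filament genes. With the GC and length trend removed, these class medians were −1.22, −0.16, −0.07 and −0.09.

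Set against LFD tumors, HFD+EC359 tumors had 8 of 34 collagen genes called (23.5%, against 5.09% of all genes), all 8 of them lower, where 1.43% of all genes fell and 3.66% rose. These were Col1a1, Col1a2, Col3a1, Col5a2, Col11a1, Col7a1, Col13a1 and Col23a1. At an adjusted p under 0.05, 23 were lower and 3 higher, against 58.3% of all genes in either direction. The groups did not overlap in 26 of 34 genes (62.9% of all genes, 31.8% upward and 31.1% downward). The median log2 difference was −0.43 over collagen genes and 0.01 over all genes. Each pair of comparisons shares a group of libraries, so the values stand side by side and the comparisons do not support each other.

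**Figure D2:**
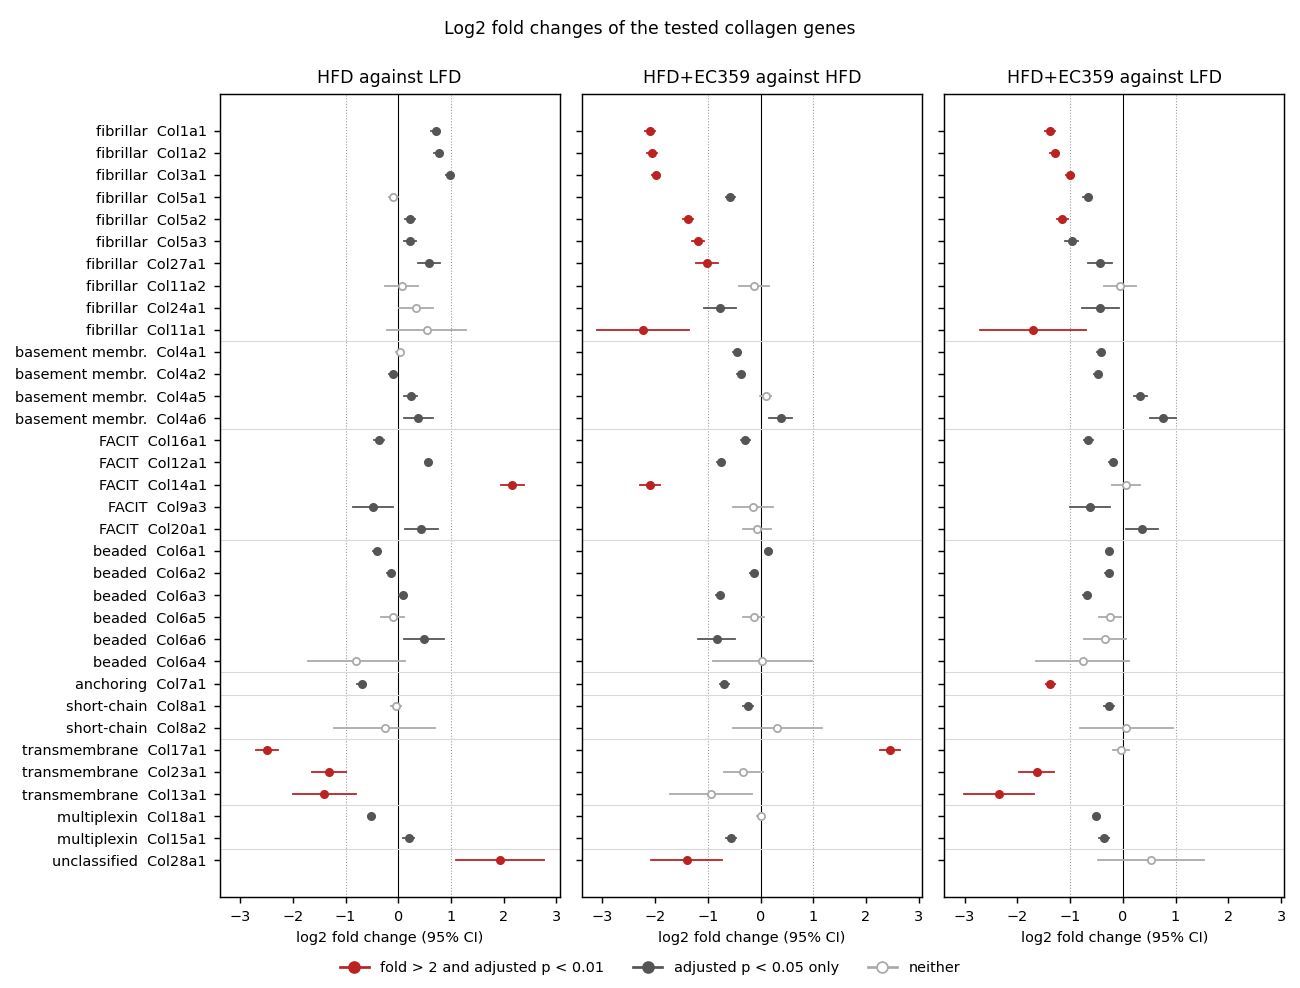
Log2 fold change with its 95% confidence interval (x axis) of each of the 34 tested collagen genes (rows, grouped by class) for each of the 3 comparisons of LFD, HFD and HFD+EC359, with dotted lines at a 2-fold change. In HFD+EC359 against HFD all 10 fibrillar genes lie left of 0, while Col17a1 lies far to the right.

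Of the fibrillar class, 10 of 11 genes were tested. Against LFD, none was called in HFD, and the median log2 difference was 0.44. At an adjusted p under 0.05, 6 were higher, where 26.0% of all genes were higher. On EC359, 7 of the 10 fell (1.38% of all genes) and 9 were lower at an adjusted p under 0.05 (13.9% of all genes). Relative to LFD, 5 of the 10 fell in HFD+EC359 (1.43% of all genes), with a median of −0.99.

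Col1a1 encodes the major chain of type I collagen, the principal fiber of tumor stroma. It was the collagen with the highest level per kilobase of transcript in every group, at 895 ± 108 CPM per kilobase in LFD, 1461 ± 49.4 in HFD and 343 ± 6.96 in HFD+EC359. Its level was 4788, 3869 and 3964 CPM in the LFD libraries, 7087, 6877 and 6624 in HFD, and 1628, 1631 and 1573 in HFD+EC359. The groups were fully apart, with HFD highest and HFD+EC359 lowest. LFD replicate 1 was the highest of its group. With the GC and length trend removed, the log2 difference of Col1a1 was 0.98 in HFD against LFD (0.71 ± 0.04 SE without that step), −1.96 in HFD+EC359 against HFD (from −2.09) and −0.98 in HFD+EC359 against LFD (from −1.38). The last of these was then 1.97-fold and no longer called.

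Col1a2, the partner chain of type I collagen, had 2158, 1759 and 1822 CPM in LFD, 3282, 3326 and 3169 in HFD, and 799, 780 and 761 in HFD+EC359. It kept the same order of groups with no overlap. The log2 difference was 0.77 ± 0.04 (SE, n = 3 per group, edgeR adjusted p = 4.73e-16) for the diet and −2.06 ± 0.04 (adjusted p = 1.18e-27) for EC359, and it was −1.29 ± 0.04 between HFD+EC359 and LFD. Per kilobase it had rank 2 among collagens in LFD and HFD and rank 5 in HFD+EC359, where Col6a1, Col4a1 and Col18a1 stood above it.

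Col3a1, which forms type III collagen and shares fibers with type I, had 1631, 1471 and 1486 CPM in LFD, 3069, 3072 and 2884 in HFD, and 769, 772 and 744 in HFD+EC359. It showed the largest diet difference of the 3 major chains and lay just outside the 2-fold limit there, at 1.97-fold (log2 0.98 ± 0.03, adjusted p = 1.25e-21). With the GC and length trend removed, Col3a1 (0.998 ± 0.03 SE) and Col1a1 (0.983 ± 0.03) were not apart. Leaving out LFD replicate 1 or HFD replicate 3, or scaling by library totals, put Col3a1 inside the limit, at 2.03-fold, 2.004-fold and 2.03-fold. On EC359 it fell by 1.98 on the log2 scale (3.95-fold, adjusted p = 7.69e-30). Against LFD it lay just inside the limit in HFD+EC359 at 2.01-fold, and 6 of 18 other settings put it outside. These were LFD replicate 1 left out (1.94-fold), HFD+EC359 replicate 3 left out (1.99-fold), library totals (1.905-fold), the GC and length trend removed (1.95-fold) and both other filters on low counts (1.996-fold and 1.999-fold).

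Type V collagen sets the diameter of type I fibers. Its chain genes were unequal. Col5a2 had 362, 311 and 321 CPM in LFD, 401, 386 and 371 in HFD, and 154, 152 and 143 in HFD+EC359. All 3 HFD+EC359 libraries were far below the others, while HFD exceeded LFD only slightly. Col5a2 fell by 1.37 ± 0.05 (SE) on the log2 scale on EC359 (edgeR adjusted p = 1.06e-21), and the diet difference was 0.22 ± 0.05. Col5a3 had 231, 188 and 197 CPM in LFD, 247, 249 and 220 in HFD, and 108, 103 and 102 in HFD+EC359, with LFD and HFD overlapping. It fell by 1.19 ± 0.06 on EC359 (adjusted p = 8.07e-18). Against LFD its log2 difference in HFD+EC359 was −0.97 (1.96-fold). It was called when LFD replicate 2 was left out (2.06-fold), and removal of the GC and length trend left −0.59. Col5a1, the chain found in most type V molecules, was not called in any comparison and is given here after its values were seen. It had 1614 ± 156, 1511 ± 36.2 and 1015 ± 20.5 CPM (SD, n = 3) in LFD, HFD and HFD+EC359, a log2 difference of −0.58 ± 0.04 on EC359.

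The minor fibrillar genes were lower in level. Col27a1, a collagen of cartilage and growing tissue, had 18.8, 17.4 and 19.7 CPM in LFD, 26.6, 29.4 and 27.6 in HFD, and 13, 14.5 and 13.8 in HFD+EC359. The groups did not overlap. It fell by 1.02 ± 0.10 (SE) on the log2 scale on EC359, which is 2.02-fold (edgeR adjusted p = 7.04e-10). That call was lost without HFD replicate 2 (1.97-fold), without HFD+EC359 replicate 1 (1.97-fold), on library totals (1.98-fold), after thinning to the smallest library (1.96-fold) and after removal of the GC and length trend (1.88-fold).

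Col11a1, a chain of the fiber core that is often raised in desmoplastic tumors, had only 10, 15 and 4 counts in LFD, 19, 17 and 21 in HFD and 7, 3 and 4 in HFD+EC359. The HFD libraries were all above the HFD+EC359 libraries, and LFD overlapped both. Its log2 difference on EC359 was −2.23 ± 0.43 (SE, edgeR adjusted p = 0.000133). Against LFD it was −1.69, and that call was lost without LFD replicate 1 or 2 and without HFD+EC359 replicate 2 or 3 (2.54-fold to 2.98-fold, adjusted p = 0.0131 to 0.0584). The other fibrillar genes, Col24a1 and Col11a2, had means of 6.12 to 11 CPM and were called in no comparison.

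Markers of cells that can make fibrillar collagen were set beside these values. The 11 fibroblast markers summed to 2027 to 2064 CPM in LFD, 1816 to 1826 in HFD and 1853 to 1863 in HFD+EC359, and none had 3 or fewer counts throughout. Their median log2 difference went the other way from this sum. It was 0.64 for the diet (9 above 0, 2 below) and −0.45 on EC359 (2 above 0, 9 below). Of them 4 rose in HFD (Fap, Pi16, Dpt and Clec3b) and 3 fell on EC359 (Pi16, Dpt and Clec3b), while Pdgfra, a defining receptor of fibroblasts, had means of 322, 374 and 475 CPM and was highest in HFD+EC359. The 8 myofibroblast and pericyte markers summed to 140 to 144 CPM in LFD, 174 to 191 in HFD and 118 to 121 in HFD+EC359. Of the 7 tested, Rgs5 rose in HFD, and Acta2 and Tagln fell on EC359, by 1.18 and 1.36 on the log2 scale. Of the 9 endothelial markers, which summed to 466 to 478, 707 to 740 and 606 to 629 CPM, 2 rose in HFD (Cdh5 and Emcn) and Vwf fell on EC359. Over all genes tested, 3.03% rose in HFD and 1.38% fell on EC359. The part of these lists in the fibrillar collagen values was not tested.

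**Figure D3:**
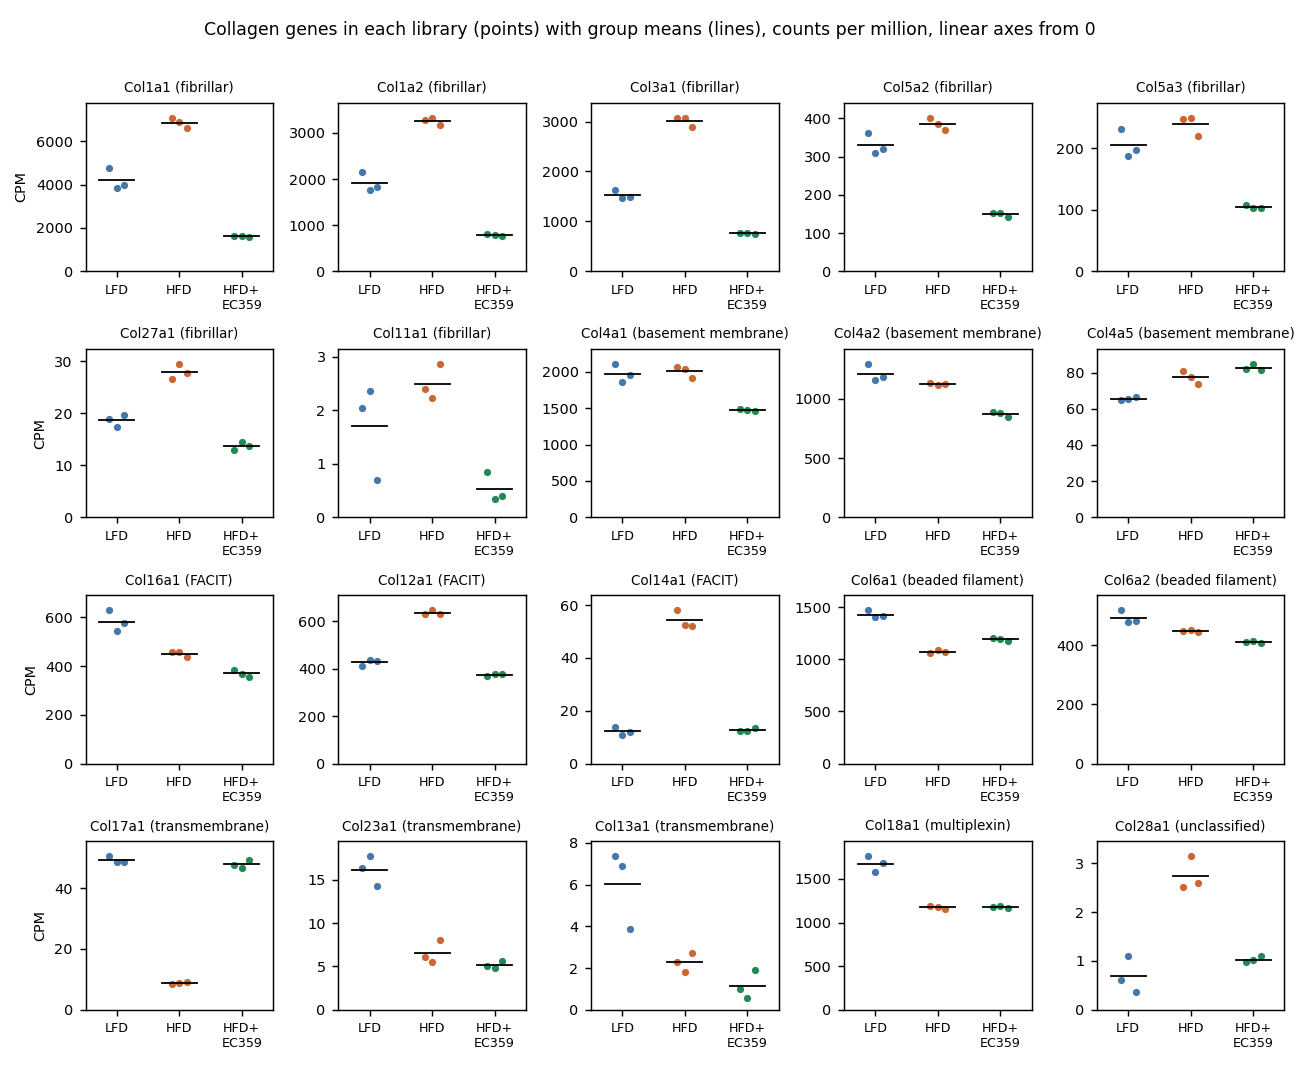
CPM (y axis, a linear scale from 0 in each panel) of 20 collagen genes in the LFD, HFD and HFD+EC359 libraries, with 1 point per library and a bar at the group mean. Col1a1, Col1a2, Col3a1 and Col14a1 are highest in HFD, and Col17a1 is lowest in HFD.

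Among the FACIT genes, 5 of 9 were tested. Col14a1 stood apart from the rest. It encodes a collagen that sits on type I fibers and regulates their growth, and it had 13.7, 11 and 12 CPM in LFD, 58.1, 52.5 and 52.3 in HFD, and 12.5, 12.2 and 13.3 in HFD+EC359. LFD and HFD+EC359 overlapped, and every HFD library was far above both. Col14a1 rose by 2.16 ± 0.10 (SE) on the log2 scale in HFD (4.48-fold, edgeR adjusted p = 1.38e-17) and fell by 2.098 ± 0.09 on EC359 (4.28-fold, adjusted p = 1.51e-18). Between HFD+EC359 and LFD the difference was 0.06, with a 95% interval from −0.20 to 0.33, and −0.01 once the GC and length trend was removed. Per kilobase, its rank among the 43 genes went from 26 in LFD to 19 in HFD and 24 in HFD+EC359.

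Col12a1, another fiber-surface collagen, had 412, 437 and 432 CPM in LFD, 629, 647 and 631 in HFD, and 370, 379 and 377 in HFD+EC359. HFD was again the highest group, without overlap, but both differences stayed under 2-fold at 0.57 ± 0.03 and −0.76 ± 0.03 (SE) on the log2 scale. Col16a1, which links fibers to cells and other matrix, instead went down in steps, with 630, 543 and 576 CPM in LFD, 459, 459 and 437 in HFD, and 385, 368 and 356 in HFD+EC359. Its log2 differences were −0.37 and −0.29. Removing the GC and length trend left −0.12 and −0.16. Col9a3 and Col20a1 had means of 7.21 to 12.1 CPM and were called in no comparison.

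Of the 6 basement membrane genes 4 were tested, and 0 were called in any of the 3 comparisons. Col4a1 and Col4a2 were abundant and the others were not. At an adjusted p under 0.05, 3 of the 4 differed in HFD against LFD, 3 on EC359 and 4 in HFD+EC359 against LFD, beside 51.8%, 26.6% and 58.3% of all genes. Col4a1, the major chain of type IV collagen, had 2107, 1857 and 1951 CPM in LFD, 2065, 2037 and 1920 in HFD, and 1489, 1476 and 1456 in HFD+EC359. LFD and HFD overlapped and HFD+EC359 lay below both, with a log2 difference of −0.45 ± 0.03 (SE, edgeR adjusted p = 3.32e-12) on EC359. Col4a2, its partner, had 1294, 1163 and 1185 CPM in LFD, 1131, 1120 and 1123 in HFD, and 887, 878 and 848 in HFD+EC359, and its difference on EC359 was −0.37 ± 0.03. The start sites of these genes lie 3 bases apart on opposite strands of chromosome 8 (mm9). For the diet, Col4a2 was at −0.11 (adjusted p = 0.00742), and at 0.10 (adjusted p = 0.00169) with the GC and length trend removed, so no direction is given for it.

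Col4a5 and Col4a6, the pair on the X chromosome, did not share the lower level of Col4a1 and Col4a2 in HFD+EC359. Col4a5 had 64.8, 65.4 and 66.5 CPM in LFD, 80.9, 77.6 and 73.5 in HFD, and 82.1, 84.7 and 81.2 in HFD+EC359. LFD was lowest without overlap, at a log2 difference of 0.24 ± 0.06 (SE, edgeR adjusted p = 0.00124) for the diet, and the EC359 difference was 0.09 (adjusted p = 0.207). Col4a6, chosen after its values were seen as the partner of Col4a5, had 11.5 ± 1.36, 15.1 ± 1.33 and 19.6 ± 0.635 CPM (SD, n = 3) in LFD, HFD and HFD+EC359. Its log2 difference was 0.38 for the diet, 0.38 on EC359 and 0.76 (1.70-fold) between HFD+EC359 and LFD. The diet difference had an adjusted p of 0.0162 and lost it without LFD replicate 3 (0.29, adjusted p = 0.105) or HFD replicate 3 (0.31, adjusted p = 0.0842), and under DESeq2 (0.38, adjusted p = 0.0516).

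All 6 beaded filament genes of type VI collagen were tested and 0 were called in any comparison. Col6a1 had 1469, 1400 and 1410 CPM in LFD, 1060, 1087 and 1072 in HFD, and 1202, 1192 and 1174 in HFD+EC359. HFD was lowest with no overlap, where the major fibrillar genes were highest in HFD, at log2 differences of −0.41 ± 0.03 (SE, edgeR adjusted p = 3.23e-13) for the diet and 0.15 ± 0.03 (adjusted p = 0.000215) on EC359. With the GC and length trend removed the first was −0.26. Col6a2 had 517, 479 and 482 CPM in LFD, 446, 451 and 444 in HFD, and 410, 414 and 408 in HFD+EC359. Its diet difference was −0.14, but 0.09 with the GC and length trend removed. Col6a3, the large chain of the same protein, was not under the rule for values in every library and is given because it differed from its partners, with 572 ± 2.06, 608 ± 7.22 and 357 ± 6.62 CPM (SD, n = 3). Its log2 difference on EC359 was −0.77 ± 0.03 (adjusted p = 5.75e-19), against 0.15 for Col6a1.

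Col7a1, which forms the anchoring fibrils under stratified epithelium and is made by keratinocytes and fibroblasts, had rank 11 of the 43 genes per kilobase and is given after its values were seen. It had 1295, 1070 and 1164 CPM in LFD, 737, 723 and 723 in HFD, and 457, 447 and 454 in HFD+EC359. Each step was complete, with no overlap between any groups. The log2 difference was −0.69 ± 0.04 (SE, edgeR adjusted p = 3.26e-15) for the diet, −0.69 ± 0.04 (adjusted p = 8.69e-15) on EC359 and −1.38 ± 0.04 between HFD+EC359 and LFD, where it was called. With the GC and length trend removed these were −0.47, −0.56 and −1.03. The microRNA gene Mir711 lies within Col7a1 on the same strand.

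The transmembrane collagens moved with the diet. All 3 tested genes of this class fell in HFD, where 2.68% of all genes fell, and Col25a1 was not tested. Col17a1, a hemidesmosome component that ties basal epithelial cells to the membrane beneath, had 50.5, 48.8 and 48.8 CPM in LFD, 8.44, 8.77 and 8.98 in HFD, and 47.6, 46.8 and 49.1 in HFD+EC359. LFD and HFD+EC359 overlapped, and the HFD libraries were all far below. Col17a1 fell by 2.496 ± 0.10 (SE) on the log2 scale in HFD (5.64-fold, edgeR adjusted p = 1.25e-19) and rose by 2.45 ± 0.10 on EC359 (5.48-fold, adjusted p = 6.3e-20). Between HFD+EC359 and LFD its difference was −0.04, with a 95% interval from −0.20 to 0.11, and 0.17 (edgeR adjusted p = 0.059) with the GC and length trend removed. Its order of groups was opposite to that of Col14a1.

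Keratinocyte markers moved with Col17a1. Of 8 such genes listed, 5 fell in HFD (2.68% of all genes) and 6 rose on EC359 (2.06% of all genes). The 6 were Krt5, Krt14, Lor, Ivl, Sprr1a and Krtdap, of which all but Ivl also fell in HFD. The summed level of the 8 genes was 1118 to 1296 CPM in LFD, 168 to 182 in HFD and 528 to 536 in HFD+EC359. Krt14, a keratin of basal epithelium, had means of 761, 40.6 and 237 CPM, so unlike Col17a1 it stayed far below the LFD level in HFD+EC359. The markers chosen for 4T1 carcinoma epithelium summed to 1114 to 1135 CPM in LFD, 704 to 714 in HFD and 763 to 791 in HFD+EC359. Of these 7 markers, Cldn7 had at most 3 counts in every library, and among the 4 tested Epcam and Cdh1 fell in HFD and rose on EC359. The part of either marker list in the Col17a1 values was not tested.

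Col23a1, a transmembrane collagen of epithelial cell contacts, had 16.4, 17.7 and 14.3 CPM in LFD, 6.05, 5.5 and 8.03 in HFD, and 5.09, 4.85 and 5.59 in HFD+EC359. LFD was highest without overlap, and HFD and HFD+EC359 overlapped. It fell by 1.31 ± 0.16 (SE) on the log2 scale in HFD (edgeR adjusted p = 2.74e-08), and the EC359 difference was −0.32 (adjusted p = 0.203). Col13a1, a collagen of cell junctions and the neuromuscular synapse, had 36, 44 and 22 counts in LFD, 18, 14 and 20 in HFD, and 8, 5 and 19 in HFD+EC359. HFD+EC359 replicate 3 stood with the HFD libraries. It fell by 1.401 ± 0.30 on the log2 scale in HFD (adjusted p = 0.000184), and the EC359 difference was −0.94 (adjusted p = 0.0659), or −1.56 (adjusted p = 0.0122) without HFD+EC359 replicate 3.

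The multiplexins carry large glycosaminoglycan chains at basement membranes. Col18a1, the precursor of endostatin, had 1759, 1584 and 1686 CPM in LFD, 1193, 1183 and 1158 in HFD, and 1181, 1187 and 1171 in HFD+EC359. HFD and HFD+EC359 overlapped completely, and LFD was above both. The log2 difference was −0.51 ± 0.03 (SE, edgeR adjusted p = 1.27e-14) for the diet and 0.00 on EC359, with a 95% interval from −0.06 to 0.07. With the GC and length trend removed, Col18a1 was at −0.30 for the diet and 0.12 ± 0.03 (SE, edgeR adjusted p = 0.000714) on EC359, outside that interval. Col15a1 had means of 126, 144 and 98 CPM and was called in no comparison. Col28a1, a collagen of peripheral nerve and skin outside the main classes, had 3, 7 and 2 counts in LFD, 20, 24 and 19 in HFD, and 8, 9 and 11 in HFD+EC359. HFD was highest without overlap, at log2 differences of 1.93 ± 0.41 (adjusted p = 0.000197) and −1.399 ± 0.33 (adjusted p = 0.0016). The EC359 call was lost under DESeq2 (adjusted p = 0.0151) and without HFD replicate 2 (−1.29, adjusted p = 0.0144). Of the short-chain genes, Col8a1 ranged from 132 to 159 CPM in group means and Col8a2 from 1.08 to 1.38 CPM, and neither was called.

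Chains that assemble into 1 protein were set against each other within each library, as ratios of counts per kilobase. Col1a1 to Col1a2 was 2.43, 2.41 and 2.38 in LFD, 2.36, 2.26 and 2.29 in HFD, and 2.23, 2.29 and 2.26 in HFD+EC359, so both genes of type I collagen moved nearly in step while their levels changed about 4-fold. Col4a1 to Col4a2 was 1.58 ± 0.0242 (SD, n = 3) in LFD, 1.73 ± 0.063 in HFD and 1.64 ± 0.0208 in HFD+EC359. In type V collagen, Col5a1 to Col5a2 was 3.83 ± 0.052 in LFD, 3.08 ± 0.0483 in HFD and 5.34 ± 0.108 in HFD+EC359. These 3 groups were fully apart. Col6a1 to Col6a2 was 2.72 ± 0.0482, 2.25 ± 0.0185 and 2.72 ± 0.0274, with only HFD apart. A pair of ratios was added after the values were seen. Col6a3 to Col6a1 was 0.147 ± 0.00367 in LFD, 0.208 ± 0.00306 in HFD and 0.11 ± 0.00157 in HFD+EC359, and Col3a1 to Col1a1 was 0.308 ± 0.0182, 0.37 ± 0.00617 and 0.399 ± 0.000486. All these ratios keep the GC and length trend. With it removed, Col3a1 and Col1a1 differed alike, by log2 0.998 and 0.983 for the diet and −1.961 and −1.962 on EC359. Between HFD+EC359 and LFD, Col1a1 and Col1a2 then had −0.98 and −1.13, and Col4a1 and Col4a2 −0.195 and −0.147. Both ratios thus turned direction between those groups. The Col1a1 to Col1a2 ratio also turned in the other comparisons. Col1a1 and Col1a2 there had 0.98 and 0.88 for the diet and −1.96 and −2.01 on EC359. For the diet, Col4a1 and Col4a2 had 0.17 and 0.10. Col5a1 and Col5a2 still differed on EC359, at −0.49 and −1.38. No p is given, since 3 libraries against 3 cannot go below p = 0.1 in an exact permutation test.

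**Figure D4:**
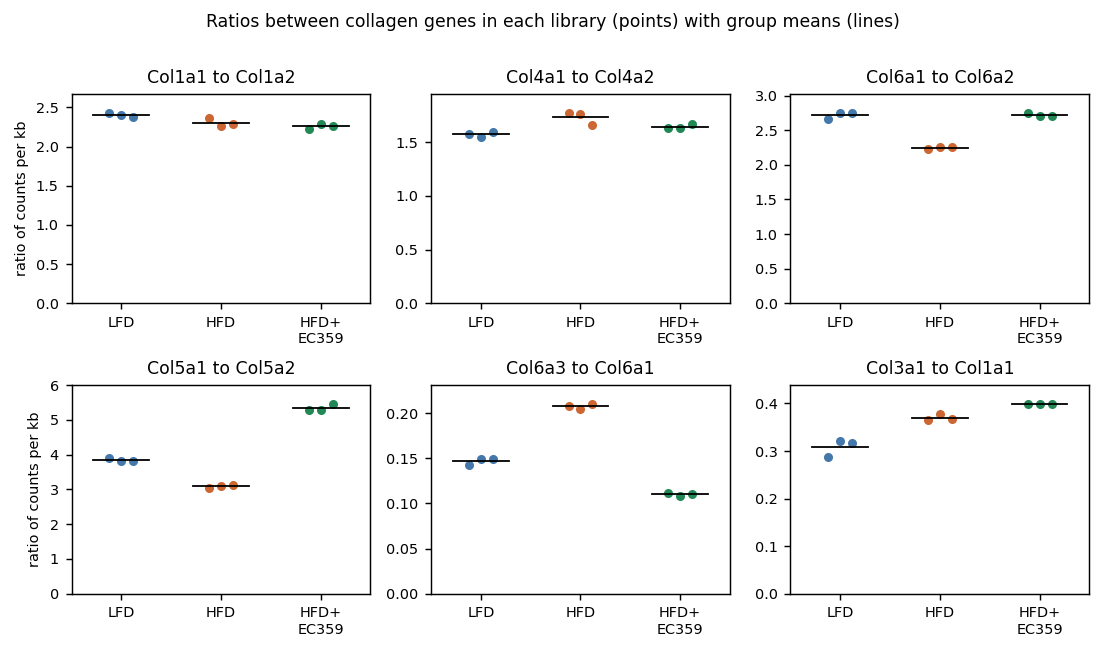
Ratio of counts per kilobase of 2 collagen genes within a library (y axis) for 6 pairs, with 1 point per library in LFD, HFD and HFD+EC359 and a bar at the group mean. Col1a1 to Col1a2 stays between 2.23 and 2.43, while Col5a1 to Col5a2 goes from 3.08 in HFD to 5.34 in HFD+EC359.

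Upstream sequence is shown for Col1a1, Col3a1 and Col14a1, which shared the order of groups with HFD highest, and for Col17a1, which had the opposite order. Each is the nearest 150 bases before the deposited start that overlap no annotated exon on the same strand. Exons further upstream were not looked for. The stretches are read 5′ to 3′ on the strand of the gene in mm9, at chr11:94797388-94797537 (plus) for Col1a1, chr1:45368233-45368382 (plus) for Col3a1, chr15:55139155-55139304 (plus) for Col14a1 and chr19:47766585-47766734 (minus) for Col17a1. Capitals mark the CCAAT box (letters CCAAT), the GC box (letters GGGCGG) and the TATA box (letters TATAAA), searched on both strands.
Col1a1: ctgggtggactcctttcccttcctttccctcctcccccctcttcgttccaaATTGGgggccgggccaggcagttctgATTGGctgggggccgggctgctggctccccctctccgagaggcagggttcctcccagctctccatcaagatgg
Col3a1: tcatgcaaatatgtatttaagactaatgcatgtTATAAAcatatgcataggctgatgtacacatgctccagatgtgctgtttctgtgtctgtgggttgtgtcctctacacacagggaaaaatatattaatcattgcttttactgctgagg
Col14a1: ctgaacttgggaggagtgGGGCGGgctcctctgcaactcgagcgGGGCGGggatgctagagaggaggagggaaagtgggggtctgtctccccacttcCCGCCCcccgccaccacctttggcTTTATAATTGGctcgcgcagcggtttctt
Col17a1: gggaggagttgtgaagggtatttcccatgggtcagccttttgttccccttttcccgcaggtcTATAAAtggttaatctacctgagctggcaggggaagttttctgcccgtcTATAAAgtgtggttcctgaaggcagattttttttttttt
The stretches of Col1a1 and Col17a1 end 46 and 52 bases before the deposited start, because an annotated exon begins there. In Col1a1 the capitals are 2 CCAAT matches, in Col3a1 1 TATA match, in Col14a1 3 GC box matches and adjoining TATA and CCAAT matches, and in Col17a1 2 TATA matches. In the 150 bases before the start of every gene (22367 windows), the CCAAT box was present in 26.2%, the GC box in 38.8% and the TATA box in 7.64%. The same windows of the 43 collagen genes had them in 9 (20.9%), 22 (51.2%) and 6 (14%). These windows reach the deposited start, so they include a TATA match of Col1a1 and a CCAAT match of Col17a1 that lie in the bases not printed. These are matches of letters, not measured binding.

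The enzymes and partners of collagen were then taken as 5 lists. Of 20 tested genes of synthesis and secretion, 2 rose and 1 fell in HFD (3.03% and 2.68% of all genes) and 1 fell on EC359 (1.38%). The 2 most abundant, P4hb, a subunit of prolyl hydroxylase, and Serpinh1, the collagen chaperone, had log2 differences of 0.05 and 0.10 for the diet and −0.11 and −0.27 on EC359. Creb3l1, a transcription factor of the secretory pathway that acts on type I collagen, rose by 1.04 ± 0.15 (SE) on the log2 scale in HFD and fell by 1.29 ± 0.13 on EC359 (edgeR adjusted p = 3.51e-07 and 3.52e-09), from 8.78 to 17.9 and 7.3 CPM in group means. The Creb3l1 diet call was lost without LFD replicate 2 (1.98-fold), LFD replicate 3 (1.94-fold) or HFD replicate 2 (1.97-fold). Glt25d2, a collagen galactosyltransferase, rose by 1.65 ± 0.52, at under 2 CPM, and lost its call in 7 of 15 other settings (adjusted p = 0.0112 to 0.0553), among them the GC and length trend removed and LFD replicate 1 or 3, HFD replicate 1 or 2 or HFD+EC359 replicate 1 left out. Leprel1, a prolyl hydroxylase, fell from 29.4 to 14.6 CPM in HFD (log2 −1.004 ± 0.11), just inside the limit, and was not called in 8 of 18 other settings (1.82-fold to 1.998-fold). Those included the GC and length trend removed and LFD replicate 1 or 2 or HFD replicate 2 or 3 left out.

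Of 12 tested genes of propeptide cleavage and crosslinking, 1 rose in HFD (3.03% of all genes) and 3 fell on EC359 (1.38% of all genes). Lox, the lysyl oxidase that crosslinks fibrillar collagen, had means of 18.6 ± 1.04, 62.6 ± 0.91 and 21.2 ± 1.83 CPM (SD, n = 3) in LFD, HFD and HFD+EC359. It rose by 1.75 ± 0.09 (SE) and fell by 1.57 ± 0.08 on the log2 scale (edgeR adjusted p = 9.87e-17 and 1.07e-16). Its relatives Loxl1 and Loxl2 fell by 1.33 and 1.28 on EC359. Bmp1, the procollagen C-proteinase and the most abundant of the list, was not called.

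Of 11 tested collagen receptors, Itga11, the integrin chain for fibrillar collagen, rose by 1.4 ± 0.29 (SE) in HFD and fell by 1.73 ± 0.27 on EC359 (edgeR adjusted p = 0.000123 and 5.68e-06), and Mrc2, the collagen uptake receptor Endo180, fell by 1.14 ± 0.07 on EC359. Of 6 tested collagenases and gelatinases, 0 were called in HFD or on EC359. Mmp14, with means of 570, 593 and 580 CPM, and Mmp9, with 426, 440 and 425 CPM, were the most abundant.

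The list of fibril-associated proteins held the most called genes. In HFD 8 of its 17 tested genes rose (Tnxb, Aspn, Dcn, Dpt, Bgn, Prelp, Lum and Nid1) and 0 fell, with a median log2 difference of 0.90. With the GC and length trend removed the median was 0.69, and Aspn (1.08, adjusted p = 0.0217 in edgeR), Lum (0.77) and Nid1 (0.99) were no longer called. Lum also lost this call without LFD replicate 2 (1.96-fold) or HFD replicate 1 (1.94-fold), and Prelp without LFD replicate 2 (1.82-fold). On EC359, 4 fell (Tnxb, Bgn, Lum and Dpt), with a median of −0.50. The Dpt call was lost without HFD replicate 3 (1.87-fold) or HFD+EC359 replicate 3 (1.90-fold), and the Lum call without HFD replicate 1 (1.98-fold). Dcn, decorin, which binds type I fibers, had 27.2 ± 5.41, 76.1 ± 4.75 and 69.9 ± 3.48 CPM (SD, n = 3) in LFD, HFD and HFD+EC359, and was thus not called on EC359. Tnxb, tenascin-X, had 25.8 ± 2.82, 133 ± 5.44 and 35 ± 2.43 CPM. Over the 5 lists, 13 of 66 tested genes (19.7%) were called for the diet, 10 (15.2%) on EC359 and 3 (4.55%) between HFD+EC359 and LFD, beside 5.71%, 3.43% and 5.09% of all genes. The last share is not above that of all genes. With the GC and length trend removed, 8 were called for the diet and 1 between HFD+EC359 and LFD. Those 3 were Dcn and Lair1, which were higher, and Adamts2, which was lower. Lair1 (0.93) and Adamts2 (−0.66) lost their calls with that trend removed, and Adamts2 also without LFD replicate 1 or 3 or HFD+EC359 replicate 3 (1.91-fold to 1.96-fold).

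**Figure D5:**
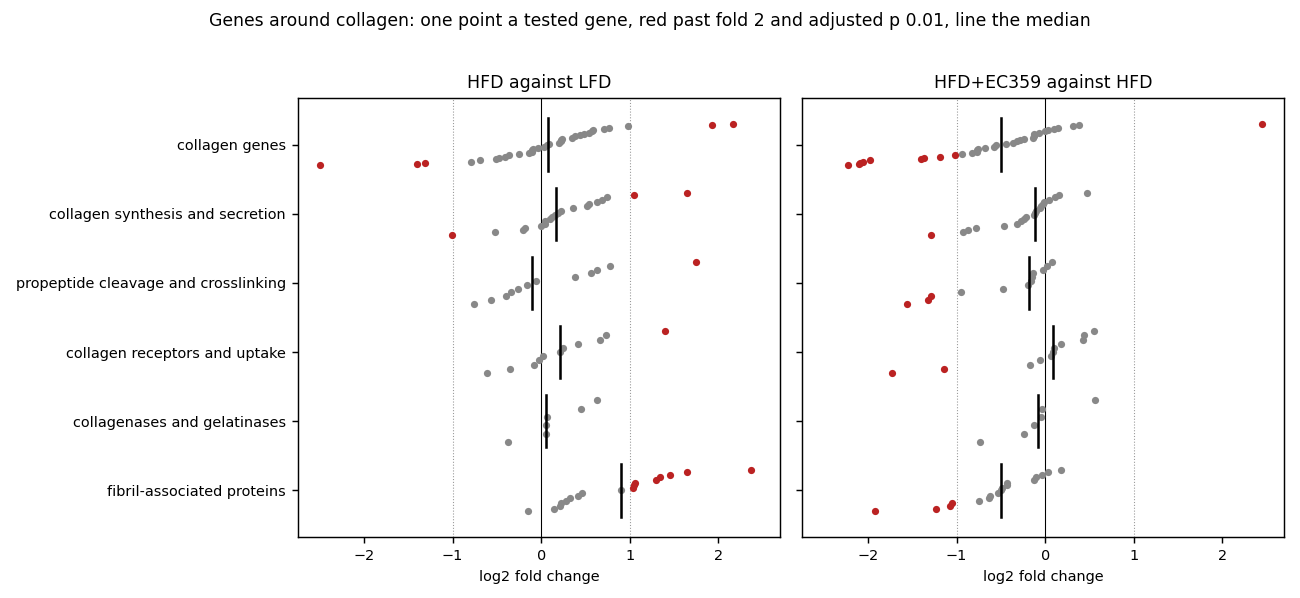
Log2 fold change (x axis) of every tested gene of the collagen genes and the 5 collagen pathway lists (rows), with 1 point per gene, called genes in red and a bar at the median, for the diet (left) and for EC359 on HFD (right). The fibril-associated list has a median of 0.90 on the left and −0.50 on the right.

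Adipocyte markers (8 genes) summed to 31.5 to 36.7 CPM in LFD, 52.3 to 54.2 in HFD and 54.4 to 59.7 in HFD+EC359, and of the 5 tested Fabp4 and Cfd rose in HFD. The 7 macrophage markers summed to 1321 to 1355, 1266 to 1276 and 1599 to 1621 CPM with 0 called in those comparisons. The 6 skeletal muscle markers summed to 281 to 333, 342 to 365 and 377 to 394 CPM, and Ckm rose in HFD and Myh4 and Ckm fell on EC359. The 8 cartilage and bone markers, 6 of which had at most 3 counts in every library, summed to 127 to 161, 118 to 130 and 129 to 135 CPM, and Alpl rose in HFD. Over all genes tested, 3.03% rose in HFD and 1.38% fell on EC359. The part of these lists in the collagen values was likewise not tested.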

How the data were processed

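RNA was sequenced from 9 samples labelled as tumors, 3 per group, as stranded mRNA libraries with 150-base read pairs. The authors' processing notes name bcl2fastq, HISAT2 2.1.0, featureCounts and build mm9, while the study's methods name another aligner and counter. Per the file headers, the deposited values are estimated counts per gene from featureCounts 1.5.0-p1 (minimum mapping quality 2, reverse-stranded, multi-mapped reads given as fractions), so genes with near-identical copies could share reads. Fractions occurred in 1.19% to 3.55% of genes of a library and were rounded to whole numbers.

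edgeR 4.0.16 (R 4.3.3) fitted all 9 libraries in 1 quasi-likelihood model after filterByExpr by group and TMM scaling. The 13366 genes kept were adjusted together, with calls at over 2-fold and adjusted p under 0.01. CPM use TMM-scaled totals, and class shares use unscaled totals. The fit was also run on counts simulated from these data. The planted changes were larger than the 2-fold limit, so calls near that limit were not probed. DESeq2 1.42.0 was an alternative. GC and sequence came from the mm9 genome, exons and lengths from the deposited files. Ratios and shares have no test.

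Values in every library are given for the 3 highest genes per kilobase of the fibrillar, basement membrane and FACIT classes and of all other classes together, and for collagen genes called in HFD against LFD or HFD+EC359 against HFD. Of other lists the 2 most abundant and such called genes could be named, with exceptions marked where they occur. The members, the 5 pathway lists and the 9 marker lists were chosen with earlier results of these data known. P3h4 and Flg are not among the genes analysed here. At 5085357 to 9751201 counts per library, genes under about 10 counts are measured imprecisely.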

Additional observations from a re-analysis of the deposited data

How the results depend on the processing

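Each comparison was recomputed under 15 to 19 other settings, and shares and ratios under 4. Collagen genes called numbered 5, 10 and 8 of 34 for the diet, for EC359 on HFD and between HFD+EC359 and LFD, and 25, 24 and 26 at an adjusted p under 0.05 with any fold. Of all genes, 51.8%, 26.6% and 58.3% passed the latter rule. With at least 10 counts required in every library, 3 and 5 were called in the first and last, which drops genes of few counts. Leaving out 1 library at a time gave 5 to 6, 8 to 10 and 6 to 8. Pathway genes called were 13, 10 and 3 of 66 tested. At an adjusted p under 0.05 they numbered 53, 40 and 45 of 66, beside 51.8%, 26.6% and 58.3% of all genes. Calls numbered 9 to 13, 9 to 11 and 2 to 5 with 1 library left out (5 without HFD+EC359 replicate 2). With the GC and length trend removed there were 8 and 1 in the first and last. Without the mitochondrial and 10 most abundant genes, the collagen share was 1.896% in LFD, 1.842% in HFD and 1.264% in HFD+EC359, so LFD was no longer below HFD. These are shares of different genes. The step removed Col1a1 in all HFD libraries and in LFD replicate 1, but in no HFD+EC359 library. With all genes kept and 1 library left out, the share was 1.86% to 1.98% in LFD, 2.39% to 2.45% in HFD and 1.18% to 1.2% in HFD+EC359.

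Of 1806 single-gene values, 1734 stayed on their side of an adjusted p of 0.05, 44 lost it, 24 gained it and 4 that passed it in either fit changed sign. All 4 did so with the GC and length trend removed: Col4a2 (0.10) and Col6a2 (0.0923) in HFD against LFD, and Col6a2 (0.0597) and Col11a2 (0.39) in HFD+EC359 against LFD. Library totals in place of TMM moved the share of all called genes that were higher in HFD+EC359 than LFD from 71.9% to 81.8%. The cause of these changes was not tested.

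No pairing by replicate number was seen, with deviations of same-numbered libraries correlated at −0.0297 to 0.017. Apart from LFD replicate 1, these deviations were close to counting noise, so the check could miss a pairing. With the replicate block, 5, 10 and 8 collagen genes and 13, 10 and 3 pathway genes were called, and only Col5a1 in HFD against LFD crossed an adjusted p of 0.05 (0.0255). Depth limits the genes of few counts, such as Col11a1 with 3 to 7 counts in HFD+EC359 and Col28a1 with 2 to 7 in LFD.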
